A study of Homo sapiens with 6 samples.

Results

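The mitochondrial ribosomal protein genes are described here in cells labelled MDA-MB-231 in which RNF31 was silenced. They were taken as every gene of the deposited tables whose symbol begins with MRPL or MRPS followed by a digit, which gave 78 of 17645 genes, 49 named MRPL and 29 named MRPS. No pseudogene or antisense symbol fell under this rule. MDA-MB-231 is an established human cell line from a breast cancer that lacks oestrogen and progesterone receptors and HER2 amplification (triple negative). One group of 3 libraries came from cells transfected with a control siRNA (siControl) and the other of 3 libraries from cells transfected with siRNA against RNF31 (siRNF31), both for 48 h in DMEM with fetal bovine serum. RNF31 (HOIP) is a ubiquitin ligase that joins ubiquitin into linear chains, and the series asks about its function in this cancer. An siRNA lowers its target and does not remove it, and the labels name neither the siRNA sequences nor how many were used.

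The mitochondrial ribosome, or mitoribosome, makes the few proteins that mitochondrial DNA encodes, which are core subunits of the respiratory chain and the ATP synthase. Its rRNAs come from mitochondrial DNA, while all of its proteins are made in the cytosol from nuclear genes and imported. Large subunit proteins are named MRPL and small subunit proteins MRPS. Some descend from proteins of the bacterial ribosome, and others were gained in the mitochondrial lineage and are called mitochondria-specific here.

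Expression was deposited as FPKM, in which fragments are divided by the length of the transcript and by the size of the library, so levels are per length and can be set side by side between genes. Read depth is unknown, so counting intervals cannot be had. The FPKM columns summed to between 421755 and 463457, the 2 highest sums being those of siControl replicate 1 and siRNF31 replicate 3. The labels do not say that replicates were separate cultures, so p-values measure only how far these libraries spread, and that spread may be technical. In the check of the target, RNF31 measured 11.34, 10.7 and 10.57 FPKM in siControl and 1.92, 2.12 and 1.86 in siRNF31, and the groups did not overlap. Among markers of the labelled line, VIM ran from 3027 to 3771 FPKM. Mean CD44 was 550 in siControl and 247 in siRNF31, TGFBI 1242 and 816, and FN1 1830 and 1571. AXL (299 and 327) and MSN (237 and 305) went the other way. Of the receptors, PGR was at or under 0.01 in every library, ESR1 ran from 0.37 to 1.33 and ERBB2 from 6.84 to 8.47. Of the luminal markers EPCAM was at or under 0.03, FOXA1 at or under 0.42 and GATA3 at or under 0.81. KRT8 ran from 9.66 to 11.2 and KRT18 from 86.7 to 178, with mean KRT18 at 167 in siControl and 90.6 in siRNF31. The leukocyte marker CD68 ran from 33.18 to 44.35, while PTPRC was at or under 0.51 and LYZ at or under 0.89. Of the endothelial markers PECAM1 was at or under 1.69 (mean 1.49 in siControl and 0.573 in siRNF31), VWF at or under 0.07 and CDH5 at or under 0.01. All 5 fibroblast markers checked were present, summing to between 1933 and 2019 FPKM in siControl and between 1716 and 1738 in siRNF31. The single genes went both ways. Mean COL1A1 was 1050 in siControl and 668 in siRNF31, PDGFRB 23.4 and 9.14, and DCN 25.2 and 21.5. COL1A2 (664 and 704) and COL3A1 (204 and 328) were higher in siRNF31. The presence of fibroblast markers and near absence of EPCAM are given beside the label of the cells, and their part in the results was not tested.

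All 78 genes passed the filter on low values, which asked for 1 FPKM or more in 3 or more of the 6 libraries, and none was left out of the test. The comparison used limma on log2(FPKM + 1) over 11346 genes, and genes with an adjusted p under 0.05 over all of them were called. Means are given ± SD over 3 libraries. The log2(FPKM + 1) scale understates the change of low genes.

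Of 78 members 35 were called lower, 3 higher and 40 were not called. The background was high, since 36.5% of all genes tested were called lower and 26.6% higher, 63.1% in all. Against it, 44.9% of the members were called lower and 3.85% higher. The fold change was below 0 for 64 members, 82.1%, and for 55.6% of all genes tested. The median log2 fold change of the members was -0.21 and that of all genes tested -0.06. The groups were fully separated for 33 members with siRNF31 lower (42.3%, against 38.8% of all genes tested) and for 5 with siRNF31 higher (6.41%, against 28.4%). On the log2(FPKM + 1) scale, only 5 members, 6.41%, were called lower by at least 1.5-fold, where 13.1% of all genes tested were, and only 1, MRPL39, by at least 2-fold, where 4.31% were. On the FPKM scale itself MRPL27 was also past 2-fold and MRPS18A past 1.5-fold, with siRNF31 means of 48.9% and 65.9% of siControl. No member was called higher by 1.5-fold, against 9.91% of all genes tested. These shares are descriptions of a list and were not tested as such. In RNA from whole cultures, fewer mitoribosome-rich cells and less of these mRNAs per cell cannot be told apart.

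**Figure D1:**
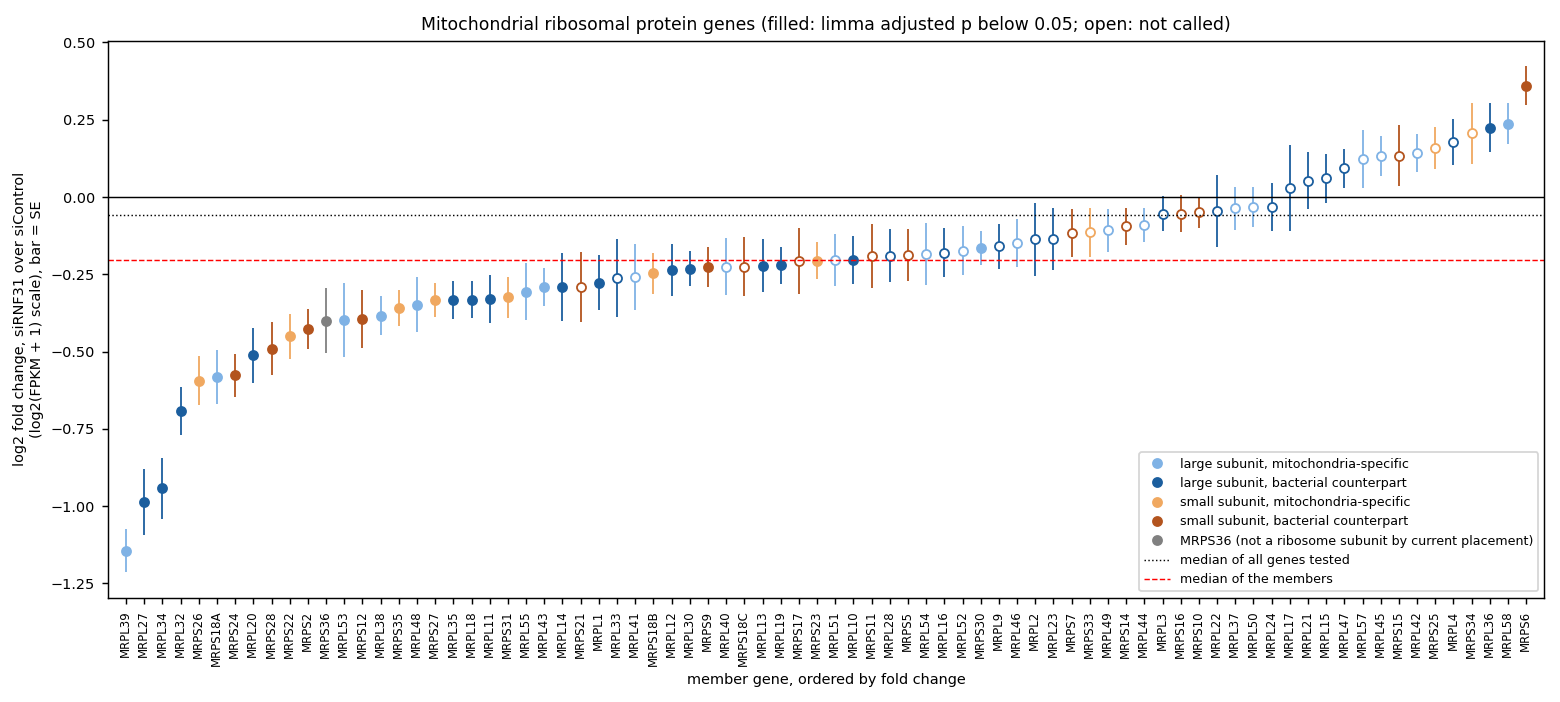
Log2 fold change of each of the 78 members, siRNF31 over siControl on the log2(FPKM + 1) scale, ordered from lowest to highest, with the standard error from limma as a bar, colour for subunit and ancestry, and filled points for called genes. The 35 genes called lower fill most of the left side from MRPL39 at -1.14, and the 3 called higher, MRPL36, MRPL58 and MRPS6, lie at the right end, up to 0.36.

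Summed over the members, FPKM were 3493, 3186 and 2965 in siControl replicates 1, 2 and 3 and 2636, 2655 and 2944 in siRNF31 replicates 1, 2 and 3. The groups came close, siRNF31 replicate 3 lying just under siControl replicate 3. The mean went from 3215 ± 265 to 2745 ± 172 (n = 3 each), or to 85.4% of siControl. As a share of all FPKM in the library the members held 0.732% ± 0.0292 in siControl and 0.616% ± 0.0168 in siRNF31, and on that scale the lowest siControl library (0.703%) lay further above the highest siRNF31 library (0.635%). Large subunit genes, by structure, summed to 2221 ± 194 and 1897 ± 121, and small subunit genes to 983 ± 70.2 and 840 ± 50.9.

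Within each group 1 library stood high for these genes. Among the siControl libraries, replicate 1 held the highest value for 71 of 78 members and replicate 3 the lowest for 64. In the siRNF31 group, replicate 3 held the highest value for 61 members. The same libraries were highest for 44.8% and 45.9% of all genes tested. The median member lay 0.11 above its group mean in siControl replicate 1, 0.10 below it in siControl replicate 3 and 0.09 above it in siRNF31 replicate 3, on the log2 scale, while the median gene of all those tested lay between -0.01 and 0.01. Without siControl replicate 1 and siRNF31 replicate 3 together, 46 members were called lower and 9 higher (39.8% and 30.0% of all genes tested), with a median log2 fold change of -0.19. Without siControl replicate 1 alone, 30 were lower and 6 higher (35.6% and 26.1% of all genes tested), and the median was -0.14. Scaling changed the split between directions. Scaled to a common sum, 47 members were lower and 4 higher (37.9% and 24.3% of all genes tested). With median of ratios scaling 30 members were lower and 7 higher (33.5% and 28.9% of all genes tested). With quantile normalization 30 were lower and 9 higher (33.0% and 31.1%). The median of the members remained below 0 with each scaling, as did that of all genes tested.

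**Figure D2:**
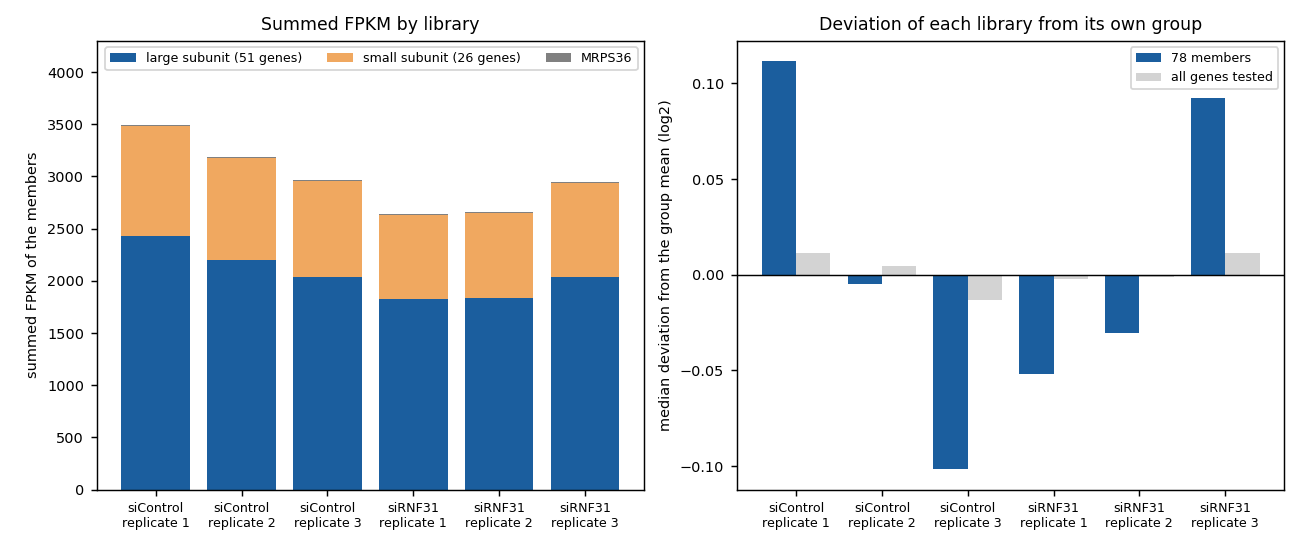
Left, FPKM summed over the members in each of the 6 libraries, split into 51 large subunit genes, 26 small subunit genes and MRPS36; right, the median deviation of each library from its own group mean (log2), for the 78 members and for all genes tested. Sums run from 2636 to 2944 in siRNF31 and from 2965 to 3493 in siControl, and the members deviate more than other genes in siControl replicates 1 and 3 and siRNF31 replicate 3.

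Levels differed widely between members. Averaged over the 6 libraries, MRPS24 was the highest at 161 FPKM, followed by MRPL3 at 119, MRPL37 at 117 and MRPL51 at 101. The lowest were MRPL42 at 4.49, MRPS33 at 5.06, MRPS23 at 6.68 and MRPS31 at 6.98 FPKM, so the level per length spanned 35.8-fold from MRPL42 to MRPS24. The median member measured 34.0 FPKM in siControl and 27.8 in siRNF31, above the median of all genes tested (11.3 and 10.7). Across the 78 members the fold change had a Spearman correlation of -0.11 with mean level, a description over genes that share the same 6 libraries.

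The largest fall was that of MRPL39, a mitochondria-specific protein of the large subunit that resembles threonyl-tRNA synthetase. Its values were 40.95, 38.55 and 36.24 FPKM in siControl and 17.68, 15.55 and 17.49 in siRNF31. Every siRNF31 value lay far below the lowest siControl value. The mean fell from 38.6 ± 2.36 to 16.9 ± 1.18 FPKM (SD, n = 3 each), which left 43.8% of siControl (log2 fold change -1.14, SE 0.070, limma adjusted p = 2.44e-06).

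MRPL27, the counterpart of bacterial bL27, which in bacteria reaches towards the peptidyl transferase centre, measured 50.91, 37.84 and 40.1 FPKM in siControl and 19.54, 22.34 and 21.18 in siRNF31. siControl replicate 1 was well above the other two, and the groups did not overlap. The mean fell from 43.0 ± 6.99 to 21.0 ± 1.41 FPKM (log2 fold change -0.99, SE 0.107, limma adjusted p = 6.92e-05). MRPL34, counterpart of the small bacterial protein bL34, measured 64, 53.91 and 50.55 FPKM in siControl and 27.08, 27.09 and 31.86 in siRNF31. Again the groups did not overlap, and 51.1% of the siControl mean was left (log2 fold change -0.94, SE 0.098, limma adjusted p = 5.63e-05). In the annotation an exon of MRPL34 overlaps ABHD8 on the other strand. ABHD8 rose from 5.22 ± 0.300 to 7.17 ± 0.604 FPKM (log2 fold change 0.39, SE 0.076, limma adjusted p = 0.00208), the opposite direction.

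MRPL32, the bL32 counterpart, whose presequence is removed by the m-AAA protease before it joins the ribosome, measured 80.73, 72.65 and 65.43 FPKM in siControl and 44.02, 43.86 and 45.93 in siRNF31. Its siRNF31 values were tight and all below siControl, and the mean fell from 72.9 ± 7.65 to 44.6 ± 1.15 (log2 fold change -0.69, SE 0.077, limma adjusted p = 8.32e-05). MRPL20, the counterpart of bL20, an early assembly protein in bacteria, measured 112.49, 101.51 and 96.68 FPKM in siControl and 70.03, 66.16 and 81.18 in siRNF31. siRNF31 replicate 3 was its highest siRNF31 value and still lay below siControl (log2 fold change -0.51, SE 0.088, limma adjusted p = 0.00105).

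In the small subunit the largest falls were those of MRPS26 and MRPS24. MRPS26, which is mitochondria-specific, measured 29.32, 27.57 and 25.51 FPKM in siControl and 16.91, 16.86 and 19.87 in siRNF31, with no overlap (log2 fold change -0.59, SE 0.080, limma adjusted p = 2.48e-04). MRPS24, the counterpart of bacterial uS3, which in bacteria lines the entry of the mRNA channel, measured 201.32, 197.87 and 178.4 FPKM in siControl and 129.48, 120.98 and 135.54 in siRNF31. The groups of this most abundant member did not overlap, and its siRNF31 mean was 66.8% of siControl (log2 fold change -0.58, SE 0.070, limma adjusted p = 1.31e-04). A readthrough transcript annotated as URGCP-MRPS24 shares exons with MRPS24 and was listed at 3.25, 0.15 and 1.35 FPKM in siControl and 2.61, 2.73 and 2.43 in siRNF31, far below MRPS24 itself.

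MRPS18A carries a small subunit name, but its protein sits in the large subunit of the human mitoribosome. It measured 36.52, 33.67 and 31.13 FPKM in siControl and 19.71, 23.13 and 23.93 in siRNF31, without overlap (log2 fold change -0.58, SE 0.086, limma adjusted p = 4.38e-04). Its paralogs, all related to bacterial S18, had fold changes nearer to 0. MRPS18B, in the small subunit, measured 54.5 ± 1.83 FPKM in siControl and 45.8 ± 3.61 in siRNF31 (SD, n = 3 each; log2 fold change -0.25, SE 0.067, limma adjusted p = 0.0111), and with the replicate number as a block the call was lost (adjusted p = 0.0545). MRPS18C measured 19.2 ± 1.55 FPKM in siControl and 16.3 ± 2.05 in siRNF31, and the groups overlapped (log2 fold change -0.23, SE 0.095, limma adjusted p = 0.0662). The difference between the paralogs was not tested. MRPS30, the other member named for the small subunit and found in the large one, measured 24.8 ± 1.27 FPKM in siControl and 22.0 ± 0.429 in siRNF31 (adjusted p = 0.0295 by limma), and its call was lost in 7 of 14 alternatives, among them the omission of siControl replicate 2 or of any siRNF31 library (adjusted p from 0.0606 to 0.133).

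**Figure D3:**
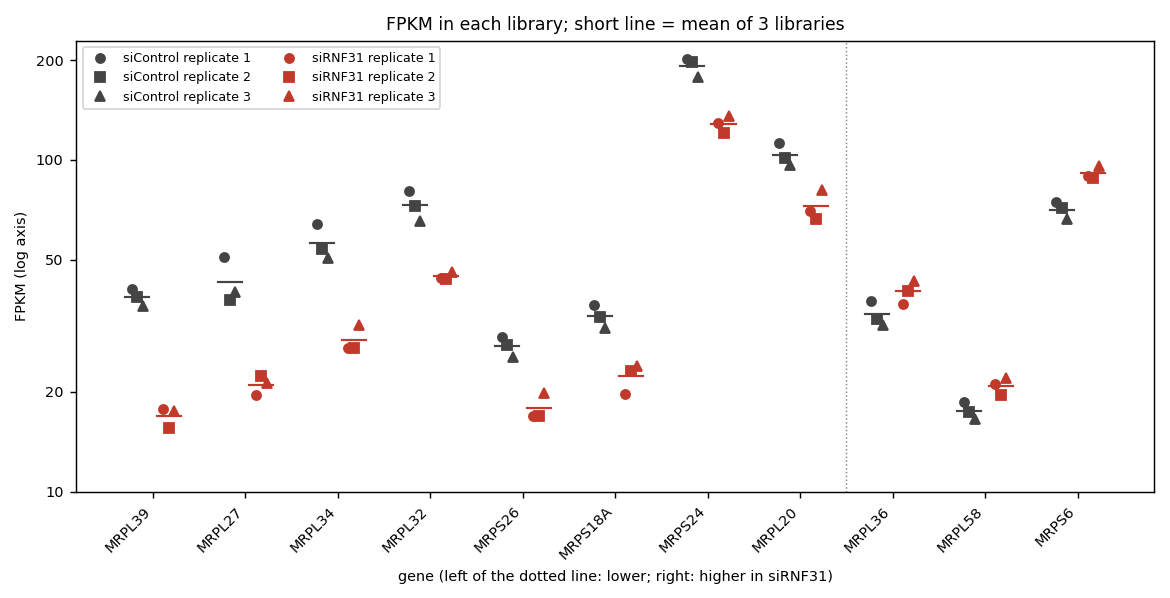
FPKM in each of the 6 libraries on a log axis for the 8 members with the largest falls among those called and the 3 called higher, with the group mean as a short line. For the 8 genes at the left the siRNF31 points lie below all siControl points, from MRPL39 at 15.55 to 17.68 FPKM to MRPS24 at 120.98 to 135.54. MRPL58 and MRPS6 lie above siControl in every library, and MRPL36 overlaps.

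Promoters of 5 of these genes are shown, since they include windows with an ETS core, with a YY1 core, with both and with neither. Windows run from 250 bases before to 50 after the annotated start (RefSeq, GRCh38.p14), 5′ to 3′ on the strand of the gene. Capitals mark CCGGAAG, the core bound by ETS factors such as GABPA, and AAGATGGCG, the core bound by YY1, searched on both strands. The windows are chr17:50373135-50373434 (minus strand) for MRPL27, chr6:43687742-43688041 (minus) for MRPS18A, chr7:43869468-43869767 (minus) for MRPS24, chr21:25607432-25607731 (minus) for MRPL39 and chr21:34073328-34073627 (plus) for MRPS6.
MRPL27: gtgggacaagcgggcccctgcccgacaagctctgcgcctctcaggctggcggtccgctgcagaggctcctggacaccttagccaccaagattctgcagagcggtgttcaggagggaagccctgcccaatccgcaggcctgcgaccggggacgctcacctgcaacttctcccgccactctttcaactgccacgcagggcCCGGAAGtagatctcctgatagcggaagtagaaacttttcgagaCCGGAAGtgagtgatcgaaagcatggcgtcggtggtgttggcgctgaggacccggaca
MRPS18A: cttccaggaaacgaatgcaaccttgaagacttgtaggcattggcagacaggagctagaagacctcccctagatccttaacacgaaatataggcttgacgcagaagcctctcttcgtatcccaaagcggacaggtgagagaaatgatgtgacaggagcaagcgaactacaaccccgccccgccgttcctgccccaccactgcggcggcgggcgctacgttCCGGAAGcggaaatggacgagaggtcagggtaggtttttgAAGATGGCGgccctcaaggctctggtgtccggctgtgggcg
MRPS24: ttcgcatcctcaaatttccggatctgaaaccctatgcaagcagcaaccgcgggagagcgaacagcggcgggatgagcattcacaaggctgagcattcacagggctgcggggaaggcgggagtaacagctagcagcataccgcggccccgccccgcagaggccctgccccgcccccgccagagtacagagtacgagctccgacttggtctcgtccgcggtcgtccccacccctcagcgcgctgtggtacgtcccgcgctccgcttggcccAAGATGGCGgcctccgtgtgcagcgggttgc
MRPL39: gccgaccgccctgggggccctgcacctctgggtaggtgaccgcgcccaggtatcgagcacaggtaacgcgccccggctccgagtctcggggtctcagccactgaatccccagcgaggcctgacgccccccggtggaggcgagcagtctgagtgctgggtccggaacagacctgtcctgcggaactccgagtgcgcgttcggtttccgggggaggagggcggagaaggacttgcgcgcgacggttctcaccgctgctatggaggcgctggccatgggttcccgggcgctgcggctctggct
MRPS6: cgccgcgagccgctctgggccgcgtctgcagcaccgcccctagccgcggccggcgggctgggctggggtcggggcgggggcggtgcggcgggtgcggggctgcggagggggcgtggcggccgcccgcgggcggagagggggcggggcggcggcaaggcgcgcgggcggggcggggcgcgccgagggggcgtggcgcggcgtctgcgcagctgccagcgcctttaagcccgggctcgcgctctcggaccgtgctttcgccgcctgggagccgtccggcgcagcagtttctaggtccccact

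MRPL27 holds 2 ETS cores, MRPS18A 1 ETS and 1 YY1 core, and MRPS24 1 YY1 core, while neither lies in the windows of MRPL39 and MRPS6. For 70 of the 78 members RefSeq windows were at hand, 86 windows in all, some genes having several starts. MRPL2, MRPL10, MRPL13, MRPL15, MRPL21, MRPL23, MRPL35 and MRPS28 had none. The ETS core was in 38.4% of member windows, in 17.9% of the windows of all genes tested and in 10.3% of all 35116 windows. The YY1 core was in 15.1%, 3.66% and 1.75% of the same sets. GCATGCGC, part of the site of the factor NRF1, was in 6.98%, 4.95% and 3.05%. The E-box CACGTG was in 11.6%, 9.38% and 7.26%, the CCAAT box in 32.6%, 35.2% and 34.6%, and TATAAA in 4.65%, 6.31% and 11.5%. TGATGCAAT, an element bound by ATF4, was in no member window and in 0.124% of the windows of all genes tested. ETS and YY1 cores occurred together in a window of 4 members, MRPS10, MRPS18A, MRPL38 and MRPL52, and did not overlap there. Members with the ETS core had a median log2 fold change of -0.23 and 14 of 30 called lower, and those without it -0.18 and 17 of 40. For the YY1 core the medians were -0.17 with 6 of 13 called lower, and -0.22 with 25 of 57. Of all genes tested 36.5% were called lower. Calls among other tested genes with either core were not analysed, and the differences between members with and without a core were not tested. These are matches of letters and no measure of binding.

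Only 3 members were called higher. MRPS6, the counterpart of bacterial bS6 on the platform of the small subunit, measured 74.59, 71.47 and 66.33 FPKM in siControl and 89.32, 88.42 and 95.66 in siRNF31, without overlap. The mean rose from 70.8 ± 4.17 to 91.1 ± 3.95 FPKM (log2 fold change 0.36, SE 0.063, limma adjusted p = 0.00112). SLC5A3, an inositol transporter gene, shares exonic sequence with MRPS6 on the same strand. It was far lower, 7.15 ± 1.94 FPKM in siControl and 5.61 ± 1.11 in siRNF31, and was not called (limma adjusted p = 0.205). MRPL58, also called ICT1, is a peptidyl-tRNA hydrolase that frees stalled mitoribosomes and is built into the large subunit. It measured 18.64, 17.38 and 16.59 FPKM in siControl and 21.04, 19.59 and 21.93 in siRNF31, again without overlap (log2 fold change 0.24, SE 0.066, limma adjusted p = 0.0125). MRPL36, the zinc-binding counterpart of bL36, measured 37.57, 33.15 and 31.85 FPKM in siControl and 36.86, 40.37 and 43.09 in siRNF31. siControl replicate 1 lay above siRNF31 replicate 1, so the groups overlapped. Its call (log2 fold change 0.22, limma adjusted p = 0.0369) was lost when siControl replicate 2, siControl replicate 3, siRNF31 replicate 2 or siRNF31 replicate 3 was left out, with the adjusted p from 0.0962 to 0.118. The MRPL36 call was also lost with no filter and with the replicate block (adjusted p = 0.063 and 0.111).

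Among members of known role in decoding and factor binding, MRPS12, the counterpart of uS12 at the decoding centre, measured 51.09, 43.83 and 39.55 FPKM in siControl and 31.59, 33.48 and 36.17 in siRNF31 and did not overlap (log2 fold change -0.39, SE 0.094, limma adjusted p = 0.00618). MRPL11, the counterpart of uL11 at the base of the stalk that recruits translation factors, was also lower without overlap, at 40.42, 35.63 and 34.73 FPKM in siControl and 27.02, 29 and 31.53 in siRNF31 (log2 fold change -0.33, SE 0.078, limma adjusted p = 0.00588). MRPL12, the stalk protein itself, which also binds the mitochondrial RNA polymerase POLRMT, measured 86.64, 83.53 and 71.84 FPKM in siControl and 66.68, 64.28 and 73.59 in siRNF31. Its groups overlapped, siRNF31 replicate 3 lying above siControl replicate 3. Its call (log2 fold change -0.24, limma adjusted p = 0.0354) was lost on leaving out replicate 1 or replicate 2 of either group, with adjusted p from 0.0895 to 0.126. The MRPL12 call was also lost with no filter, with median of ratios scaling and with the replicate block (adjusted p = 0.0607, 0.07 and 0.106). MRPS22, a mitochondria-specific small subunit protein in which inherited mutations cause mitochondrial disease, measured 54.7, 49.81 and 46.4 FPKM in siControl and 34.29, 37.17 and 37.98 in siRNF31 and did not overlap (log2 fold change -0.45, SE 0.072, limma adjusted p = 6.96e-04). MRPL44, a large subunit protein with an RNase III-like fold that is likewise a disease gene, measured 21.0 ± 0.721 FPKM in siControl and 19.7 ± 0.781 in siRNF31 and was not called (limma adjusted p = 0.189).

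Of the 4 most abundant members only MRPS24 was called, where 63.1% of all genes tested were called in either direction. Groups of 4 genes are too small to be set against that share. MRPL3 measured 121 ± 6.05 FPKM in siControl and 117 ± 2.16 in siRNF31 (adjusted p = 0.434 by limma), MRPL37 118 ± 8.54 FPKM in siControl and 115 ± 6.16 in siRNF31 (adjusted p = 0.666) and MRPL51 109 ± 11.5 FPKM in siControl and 93.8 ± 5.37 in siRNF31 (adjusted p = 0.06). Of the 4 lowest, MRPS31 fell from 7.88 ± 0.586 to 6.08 ± 0.0737 FPKM (log2 fold change -0.32, SE 0.067, limma adjusted p = 0.00287). MRPS23 fell from 7.23 ± 0.326 to 6.13 ± 0.0781 (limma adjusted p = 0.0167), a call lost without siControl replicate 2 or siRNF31 replicate 1 (adjusted p = 0.0674 and 0.054). The MRPS23 call was also lost with quantile normalization and with the replicate number as a block (adjusted p = 0.0686 and 0.0702). MRPS33 and MRPL42 were not called. MRPL42 measured 4.21 ± 0.139 FPKM in siControl and 4.76 ± 0.0702 in siRNF31, higher in every siRNF31 library than in any siControl library (limma adjusted p = 0.0685).

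The median was below 0 in each of the 4 groups by subunit and ancestry, as it was for all genes tested (-0.06). Of 29 large subunit genes with a bacterial counterpart 14 were lower and 1 higher (median log2 fold change -0.20), and of 22 mitochondria-specific large subunit genes 8 were lower and 1 higher (-0.18). The small subunit had 5 of 16 lower and 1 higher among genes with a bacterial counterpart (-0.20), and 7 of 10 lower and none higher among the mitochondria-specific ones (-0.29). In this last group MRPS18B, MRPS22, MRPS23, MRPS26, MRPS27, MRPS31 and MRPS35 were lower, MRPS33 was not called, and MRPS25 and MRPS34 had fold changes above 0 and were not called. MRPS18A and MRPS18B were counted as mitochondria-specific although related to bacterial S18, and only MRPS18C as its counterpart. The split by ancestry is therefore not strict for these genes. The shares called lower were 48.3%, 36.4%, 31.25% and 70.0% in the order given, against 36.5% of all genes tested. So 2 of the 4 groups were at or below that background. Among all genes tested 26.6% were called higher. Differences between these groups were not tested. MRPS36, which keeps a ribosomal name but is now placed in the oxoglutarate dehydrogenase complex, fell from 10.2 ± 1.68 to 7.46 ± 0.472 FPKM (log2 fold change -0.40, SE 0.106, limma adjusted p = 0.0101).

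Among the 40 members that were not called, MRPL4, MRPL22, MRPL23, MRPL24 and MRPL45, the last a protein that holds the ribosome at the inner membrane, had log2 fold changes from -0.13 to 0.18. Other members close to 0 were MRPS10, MRPS16, MRPL17, MRPL21 and MRPL50, between -0.05 and 0.05. MRPL45 and MRPS25 were higher in every siRNF31 library than in any siControl library but were not called (limma adjusted p = 0.102 and 0.0671). MRPS14 and MRPL44 were fully separated in the other direction, likewise without a call. These genes were chosen after their values were seen.

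The other members called lower lay nearer to 0 than the 8 with the largest falls. MRPS28 and MRPS2, counterparts of bacterial small subunit proteins, fell from 64.9 ± 5.18 to 46.0 ± 4.69 FPKM (log2 fold change -0.49) and from 36.0 ± 2.74 to 26.5 ± 0.840 (-0.43). MRPL53, MRPL38, MRPL48, MRPL55 and MRPL43, which are mitochondria-specific and of the large subunit, had log2 fold changes from -0.40 to -0.29. MRPL35, MRPL18, MRPL14, MRPL1, MRPL30, MRPL13, MRPL19 and MRPL10, all of the large subunit with a bacterial counterpart, lay between -0.33 and -0.20, and MRPS9 at -0.23. Of these, MRPL14, MRPL13 and MRPL10 overlapped between groups and had adjusted p from 0.0465 to 0.0486, close to the threshold, and were called in 7, 7 and 5 of 15 settings. MRPL1 was called in 9 of 15. Closest outside it were MRPS21 (adjusted p = 0.0511), MRPL51, MRPL41 (adjusted p = 0.0618) and MRPL40 (adjusted p = 0.062), each with a log2 fold change of -0.20 or lower. The remaining uncalled members, MRPL33, MRPS17, MRPL28, MRPS5, MRPL54, MRPL16, MRPL52, MRPL9, MRPL2, MRPS7, MRPL49, MRPL15, MRPL47, MRPL57 and MRPS15, had log2 fold changes from -0.26 to 0.13, and the groups overlapped for each.

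Of the 5 mitoribosome proteins that carry other symbols, 3 were called lower, where 36.5% of all genes tested were. All 5 had log2 fold changes below 0, except that DAP3 and GADD45GIP1 lay just above 0 with quantile normalization, and GADD45GIP1 also without siControl replicate 1. PTCD3, an RNA-binding protein of the small subunit, fell from 11.2 ± 0.197 to 8.48 ± 0.247 FPKM (log2 fold change -0.36, SE 0.056, limma adjusted p = 5.81e-04), and AURKAIP1, also of the small subunit, from 163 ± 14.4 to 127 ± 13.6 (limma adjusted p = 0.00917). CHCHD1 fell from 22.1 ± 3.66 to 16.9 ± 2.30 (adjusted p = 0.0315), a call that 8 of 14 alternatives lost, including the omission of replicate 1 or replicate 2 of either group (adjusted p from 0.0591 to 0.101). DAP3 measured 53.0 ± 2.69 FPKM in siControl and 50.9 ± 2.14 in siRNF31 and GADD45GIP1 37.6 ± 3.99 FPKM in siControl and 36.0 ± 2.60 in siRNF31, and neither was called.

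Genes that build and run the mitoribosome were called in both directions. Counts in the lists below are to be read against 36.5% lower and 26.6% higher among all genes tested. The share called lower was 46.4% for assembly and rRNA factors and 37.5% for translation factors. Of 28 assembly and rRNA factors 13 were lower and 2 higher (median log2 fold change -0.11). RBFA, which helps mature the small subunit, measured 4.07, 4.15 and 3.32 FPKM in siControl and 1.28, 1.3 and 1.52 in siRNF31 and did not overlap (log2 fold change -1.03, SE 0.089, limma adjusted p = 1.80e-05). MRM1, a methyltransferase of the large subunit rRNA, was also lower in every siRNF31 library, at 5.4, 5.21 and 4.38 FPKM in siControl and 1.86, 1.96 and 1.94 in siRNF31 (log2 fold change -1.03, SE 0.081, limma adjusted p = 1.03e-05). MRM2, of the same kind, fell from 32.4 ± 3.45 to 20.6 ± 0.840 FPKM and MTERF3, which acts in large subunit assembly, from 43.3 ± 2.18 to 28.1 ± 0.391. Of 16 translation factors 6 were lower and 2 higher (median -0.07). The recycling factor gene MRRF fell from 12.1 ± 0.852 to 7.56 ± 0.112, the elongation factor gene TSFM from 20.6 ± 1.09 to 14.2 ± 0.772, MTFMT, which formylates the initiator tRNA, from 5.68 ± 0.224 to 3.94 ± 0.253, and OXA1L, which inserts the products into the inner membrane, from 28.5 ± 0.355 to 20.6 ± 0.217.

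For mitochondrial transcription and RNA processing, 9 of 19 genes were lower and 2 higher (median -0.17). PRORP, the nuclease subunit of mitochondrial RNase P, fell from 11.5 ± 0.555 to 6.79 ± 0.316 FPKM, ELAC2, which trims the other end of tRNAs, from 37.9 ± 2.28 to 25.6 ± 1.55, the DNA packaging factor TFAM from 43.2 ± 3.06 to 30.0 ± 3.57, and POLRMT from 18.3 ± 0.414 to 13.2 ± 1.07 (limma adjusted p from 3.05e-05 for PRORP to 0.0012 for TFAM). Of 8 tested regulators of mitochondrial genes 3 were lower and 2 higher. MYC rose from 32.9 ± 1.78 to 70.6 ± 3.13 and PPRC1 from 11.0 ± 0.416 to 16.1 ± 0.129, and ESRRA fell by 0.27 on the log2 scale. YY1, whose core was searched in the promoters, was called lower, from 14.8 to 12.5 mean FPKM, without overlap (log2 fold change -0.23, SE 0.052, limma adjusted p = 0.00434), while NRF1, GABPA and GABPB1 were not called. PPARGC1B, at about 1 FPKM, was called lower (log2 fold change -0.26, limma adjusted p = 0.0241), but the call was lost with the replicate block and on leaving out replicate 2 or replicate 3 of either group (adjusted p from 0.0586 to 0.0788). Import genes went both ways, with 8 of 15 lower and 4 higher (median -0.27). TIMM17B fell from 10.4 ± 1.27 to 3.68 ± 0.601 and the receptor gene TOMM20 from 57.9 ± 2.59 to 27.6 ± 0.563, while TOMM22 rose from 22.4 ± 2.47 to 42.5 ± 1.37 and TIMM44 from 27.9 ± 3.50 to 45.1 ± 3.79. Of 7 genes used as markers of mitochondrial amount, 3 were lower, namely VDAC1 from 340.4 to 264, VDAC2 from 152 to 103 and PHB2 from 118 to 95.4 mean FPKM, and 2 were higher, CYCS from 60.0 to 96.3 and, close to the threshold, CS from 67.5 to 74.6 (limma adjusted p = 0.0466). The PHB2 call was lost with the replicate block and without siControl replicate 2, siRNF31 replicate 1 or siRNF31 replicate 2 (adjusted p from 0.0545 to 0.0733). The members share with the assembly, transcription and translation lists a share of higher calls below the 26.6% of all genes tested, from 3.85% for the members to 12.5% for translation factors. For regulators, import genes and markers of mitochondrial amount that share was 25.0%, 26.7% and 28.6%, close to all genes tested. Their shares of lower calls were 37.5%, 53.3% and 42.9%, and that of the transcription list 47.4%, against 36.5% of all genes tested.

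**Figure D4:**
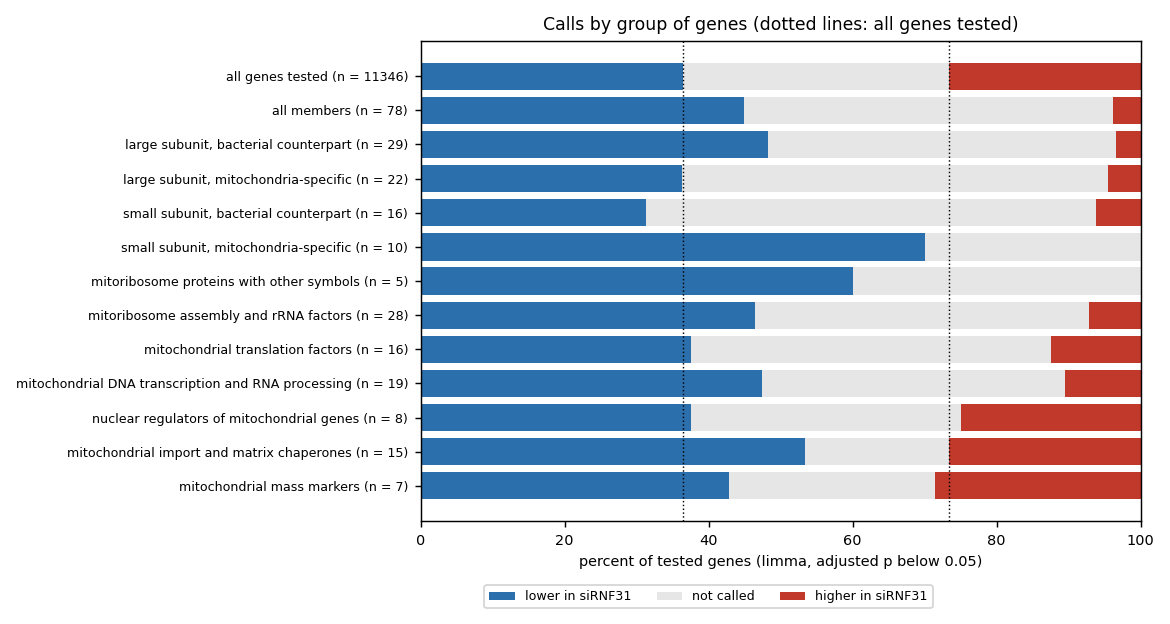
Percent of tested genes called lower, not called and called higher (limma, adjusted p below 0.05) among all genes tested, the 78 members, their 4 subunit and ancestry groups, and 7 lists of other mitochondrial genes, with dotted lines at the shares of all genes tested. The members show 44.9% lower and 3.85% higher, against 36.5% and 26.6% of all genes tested.

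Mitoribosome genes are short. The median annotated transcript was 1378.5 bases long for the members and 3062 for all genes tested, with a GC content of 49.6% and 49.0%. Over the members the fold change had a Spearman correlation of 0.13 with length and -0.09 with GC content, and over 11281 tested genes 0.06 and -0.09, given as descriptions. The 3′ UTRs of members are shorter, with a median of 325.5 bases against 1003. Each gene was represented by 1 transcript.

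Many members lie head to head with another gene. For 17 of them a tested gene that is no member starts within 1000 bases on the other strand, and of these 17 partners 11 were called lower, 2 higher and 4 not, a count to be read against 36.5% lower and 26.6% higher among all genes tested. Other head-to-head genes were not analysed here. Both genes were called lower in 7 pairs, chosen here after their values were seen. EME1, a DNA repair nuclease subunit that starts 45 bases from MRPL27, fell from 6.81 ± 0.566 to 3.81 ± 0.882 FPKM (log2 fold change -0.71, SE 0.134, limma adjusted p = 0.00164). SARS2, the mitochondrial seryl-tRNA synthetase and neighbour of MRPS12, fell from 7.63 ± 0.533 to 4.07 ± 0.134 (adjusted p = 2.27e-05), and the proteasome gene PSMA2, neighbour of MRPL32, from 161 ± 13.7 to 123 ± 8.12 (adjusted p = 0.00283). The other 4 pairs were MRPL14 with TMEM63B, MRPL18 with TCP1, MRPL30 with MITD1 and MRPS27 with PTCD2. The 2 partners that were higher were HELQ beside MRPS18C and ZNF189 beside MRPL50. MRPL46 and MRPS11 are head to head with each other, with starts 320 bases apart. MRPL46 measured 17.28, 15.1 and 14.23 FPKM in siControl and 14.65, 13.66 and 13.36 in siRNF31, and MRPS11 20.88, 18.85 and 16.02 FPKM in siControl and 14.42, 16.38 and 17.52 in siRNF31. Neither was called (limma adjusted p = 0.13 and 0.136), and both overlapped between groups. Exons of 34 members overlap another annotated gene, 24 of them on the other strand and 13 on the same strand, some on both. The sources used here do not say whether reads were assigned by strand. Such assignment would not separate reads of genes on the same strand. So values of these 34 are less certain. Of the 34, 15 were called lower, where 36.5% of all genes tested were. Many mitoribosomal protein genes also have processed pseudogenes that can share reads.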

How the data were processed

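RNA was measured in 6 libraries of cells labelled MDA-MB-231, 3 siControl and 3 siRNF31. Per the labels' protocols, RNA was taken with Trizol and libraries were made by BGISEQ-500 protocols. The sources used here do not give the aligner, genome build, annotation or counting program. The authors deposited FPKM, per the file headers, to 2 decimals, one table per library. FPKM is relative, so each value also depends on how much RNA the other genes contribute, and the depth is unknown.

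Values were used as deposited and taken to log2(FPKM + 1). The test took genes that reached 1 FPKM in 3 or more of 6 libraries. It was limma 3.58.1 (R 4.3.3) using trend and robust moderation, two-sided, with Benjamini-Hochberg adjustment over 11346 genes. The fit was also run on simulated data in which few genes changed and libraries varied independently. That setting differs from these data and its outcome is not given, so it does not bear on the calls here. Other software was Python 3.11.15, numpy 2.4.6, pandas 2.3.3 and matplotlib 3.10.9.

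The members and all lists were chosen with earlier results of these data known. Members were named by a rule: the 8 largest called changes in each direction, the 4 highest and 4 lowest by mean FPKM, and 11 by role. From each other list up to 4 called genes with the largest change were named, and the 5 mitoribosome proteins with other symbols whatever their result. Genes outside the rule stand as members of a count or as neighbours, or were named after their values were seen. The last holds also where the text does not say so, as for YY1, MRPS36, MRPS28, MRPS2 and CS. Transcript lengths, 3′ UTRs and overlaps came from GENCODE release 29 (GRCh38), matched by NCBI Gene ID, and promoters from RefSeq (GRCh38.p14). Alternatives were a pseudocount of 0.1, no filter, 3 other scalings, no trend, a block for the replicate number, leaving out each library, and leaving out 2 together.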

Additional observations from a re-analysis of the deposited data

How the results depend on the processing

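Over 14 alternatives the members called lower ranged from 24 to 47 around 35, within 1.5 times throughout. Their standing against all genes tested was not stable. Without siRNF31 replicate 1, 25 of 78 members were lower, close to the 32.8% of all genes tested. Without siControl replicate 3, 47 of 78 members were lower, against 35.4% of all genes tested. The median log2 fold change of the members ranged from -0.25 to -0.14 and was always below 0. That of all genes tested was -0.060 in the main fit and ranged from -0.079 (common sum) to 0.00044 (no filter). The members' median minus that of all genes tested was -0.145 in the main fit. It was -0.080 without siControl replicate 1 and -0.205 with no filter, the ends of its range. The distance of the members' median from the main median of -0.205 stayed smaller than the spread of library medians (0.0931, pooled SD). That spread is between single libraries, so it does not measure how far a difference between groups can move. The number called higher rested on few genes: 3 became 7 with median of ratios scaling, 9 with quantile normalization and 9 without siControl replicate 1 and siRNF31 replicate 3 together. When single libraries were left out it ran from 2 to 6, the lower count from 25 to 47 and the median from -0.25 to -0.14. In all settings run, 23 members were called lower and 2, MRPS6 and MRPL58, higher, while 16 were called in none. These are 29.5%, 2.56% and 20.5% of the members, against 29.6%, 20.8% and 23.6% of all genes tested. The replicate number as a block gave 24 lower and 2 higher (30.8% and 21.9% of all genes tested). The numbers do not pair the libraries, since deviations of same-numbered libraries correlated at -0.57, 0.12 and -0.63, and no library correlated best with its own number. The highest correlations were 0.68 for siControl replicate 1 with siRNF31 replicate 3 and 0.54 for siControl replicate 3 with siRNF31 replicate 1. What these libraries share was not tested. Of genes named by the rule, uncalled fold changes turned from below to above 0 for DAP3 (0.0122, quantile normalization), GADD45GIP1 (0.02, quantile normalization; -0.111 to 0.0284 when single libraries were left out, above 0 without siControl replicate 1) and MRPL37 (0.0041, median of ratios scaling; -0.0846 to 0.0174, likewise). Among all members, 6 crossed from below to above 0 in at least 1 alternative (MRPL22, MRPL24, MRPL37, MRPL50, MRPS10 and MRPS16) and 3 the other way (MRPL15, MRPL17 and MRPL21), none of them called in any setting. The cause of these moves was not tested. Of the other comparisons of a named gene with an alternative, 725 kept direction and call, 42 lost the call and 12 gained it. The 3 libraries a group and unknown depth limit what can be called.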
